A study of Mus musculus with 10 samples.

Results

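Homeostatic microglia markers are 9 genes by which the resting microglia of the healthy brain are recognised: P2ry12, P2ry13, Gpr34, Cx3cr1, Csf1r, Sall1, Tmem119, Siglech and Olfml3. They were chosen by symbol, and all 9 were found among the 21956 genes of the deposited table. RNA-seq was done on 10 hippocampal libraries from hMapt animals aged 6 months, a genotype named for human tau, the protein that binds microtubules in axons. Of these, 5 libraries came from animals given AAV-circTau6, an adeno-associated viral vector for the circular RNA circTau6, and 5 from control-injected animals. The series' design text puts sampling 80 days after AAV-circTau6, and does not give the interval for the controls. The sources used here do not state the content of the control injection, the promoter or cell tropism of the vector, or whether each library is 1 animal, and every library shares the hMapt genotype. The question is whether the resting microglial transcripts differ between these groups.

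Microglia are the resident macrophages of brain tissue. Their survival depends on the receptor Csf1r and its ligands Csf1 and Il34, and their identity in the adult brain is kept by transcription factors such as Sall1 and by transforming growth factor beta signalling. Through P2ry12 and related receptors they sense ADP and lipids released by damaged cells, and through Cx3cr1 they read the neuronal ligand Cx3cl1. When microglia take on a disease-associated state, transcripts of many of these genes, P2ry12, Tmem119 and Cx3cr1 among them, are known to fall.

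Between 14762952 and 17647138 counts were assigned per library, and the 9 markers had 162 to 1796 counts in each. With edgeR 0 of 14396 genes passed an adjusted p under 0.05, against 14 with DESeq2 and 2 with limma voom, and 637 had an unadjusted p under 0.05 in edgeR. Mapt had 24.4 to 31.5 CPM (counts scaled for library size), which does not check the delivery, since circTau6 has no row of its own. All 8 hippocampal neuron markers were measured. Control replicate 2 and circTau6 replicate 5 held few transcripts of the choroid plexus, a secretory epithelium of the ventricles. Its gene Ttr had 38.6 CPM and 28.0 CPM there, and 1671 to 4961 CPM elsewhere. circTau6 replicate 3 differed from the other circTau6 libraries along GC content, the share of G and C bases, with a correlation of 0.28 across 14371 genes, which are not independent replicates. In the other 9 libraries that value lay between -0.12 and 0.03.

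Positions of the members in GRCm38 were taken from GENCODE M21 by gene ID, since the sources used here do not name the authors' build. P2ry12 (chromosome 3, 59216272 to 59262871, minus strand) and P2ry13 (59207892 to 59210882, minus strand) are neighbours, and both lie wholly inside the span of Med12l, which is read from the opposite strand. Gpr34 (chromosome X, 13632089 to 13640858, plus strand) lies in the same way inside Cask. Cx3cr1 lies on chromosome 9 from 119901616 to 120069879, Sall1 on chromosome 8 from 89027235 to 89044162, and Tmem119 on chromosome 5 from 113793729 to 113800516. Siglech lies on chromosome 7 from 55768178 to 55778925, and Olfml3 on chromosome 3 from 103722222 to 103738001. Libraries were strand-specific, but the sources used here do not say whether counting used strand, so reads from the introns of these partners may be counted for P2ry12, P2ry13 and Gpr34. The exons themselves share 9 bases between P2ry12 and Med12l, and 0 between P2ry13 and Med12l or Gpr34 and Cask. Neither partner passed the test, with log2 fold changes of -0.09 ± 0.07 (SE) for Med12l and -0.06 ± 0.05 (SE) for Cask, both at an edgeR adjusted p of 0.981.

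The windows around the RefSeq starts of 4 members are shown, because Cx3cr1 and Sall1 were the pair that varied most alike across libraries, and P2ry12 and P2ry13 are genomic neighbours that encode related ADP receptors. Each window holds 300 bases, 250 before and 50 after the start, written 5′ to 3′ on the gene's own strand (GRCm38.p6). Capitals mark matches, on either strand, to letters used by factors of microglia and macrophages. These were GAGGAA for PU.1, GAAA followed after any 2 bases by GAAA for interferon regulatory factors, TGANTCA for AP-1, and CTA followed after any 4 bases by TAG for MEF2.
P2ry12, chr3:59262936-59263235, minus strand: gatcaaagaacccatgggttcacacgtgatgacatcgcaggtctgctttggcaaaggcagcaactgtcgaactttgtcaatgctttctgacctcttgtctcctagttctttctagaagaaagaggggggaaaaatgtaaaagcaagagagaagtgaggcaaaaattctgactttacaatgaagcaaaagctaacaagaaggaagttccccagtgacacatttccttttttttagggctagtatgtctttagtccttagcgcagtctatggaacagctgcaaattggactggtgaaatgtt
P2ry13, chr3:59210833-59211132, minus strand: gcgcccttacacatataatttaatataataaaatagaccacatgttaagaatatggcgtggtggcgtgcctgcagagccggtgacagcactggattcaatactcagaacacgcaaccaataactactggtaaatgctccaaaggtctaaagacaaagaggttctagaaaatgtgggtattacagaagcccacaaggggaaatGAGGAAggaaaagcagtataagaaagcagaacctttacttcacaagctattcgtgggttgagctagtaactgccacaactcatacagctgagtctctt
Cx3cr1, chr9:120068247-120068546, minus strand: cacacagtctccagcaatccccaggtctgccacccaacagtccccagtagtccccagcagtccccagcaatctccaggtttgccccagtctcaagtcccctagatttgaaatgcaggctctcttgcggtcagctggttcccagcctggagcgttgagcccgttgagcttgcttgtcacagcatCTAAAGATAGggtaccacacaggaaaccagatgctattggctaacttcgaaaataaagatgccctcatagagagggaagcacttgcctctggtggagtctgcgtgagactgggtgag
Sall1, chr8:89044113-89044412, minus strand: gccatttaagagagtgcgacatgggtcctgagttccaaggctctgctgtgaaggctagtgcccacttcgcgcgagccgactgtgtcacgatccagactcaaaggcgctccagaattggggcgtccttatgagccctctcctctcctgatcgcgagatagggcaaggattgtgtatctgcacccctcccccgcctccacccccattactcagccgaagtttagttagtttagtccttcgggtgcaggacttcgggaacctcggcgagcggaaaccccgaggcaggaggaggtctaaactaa
P2ry13 held 1 match to GAGGAA, starting 48 bases before the gene's start, and P2ry12 held none of the 4 motifs in its window. Cx3cr1 held 1 match to the MEF2 letters, starting 67 bases before the start, and the printed Sall1 window held none. Siglech, not printed, held GAGGAA on the opposite strand from 4 bases before its start. Of 32851 RefSeq windows of this length, 28.3% held GAGGAA, 3.4% the interferon regulatory factor letters, 7.8% TGANTCA and 3.7% the MEF2 letters. The P2ry12 and P2ry13 windows both had a GC content of 42.3%, the Cx3cr1 window 54.3% and the printed Sall1 window 57.3%. RefSeq lists 2 other starts for Sall1, whose windows, not printed, had 70.0% and 79.7% and held none of the 4 motifs. Windows were used for 6 of the 9 members, and none for Tmem119, Gpr34 or Csf1r.

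Of the 9 markers, Tmem119, Csf1r, Cx3cr1 and Sall1 had mean levels 11.9% to 19.2% above control after circTau6, and the ADP and lipid receptors P2ry12, P2ry13 and Gpr34 differed by -1.95% to 2.13%, all on CPM. None of the 9 passed the edgeR test adjusted over all genes, where 0% of genes passed. The 4 higher markers had an unadjusted edgeR p under 0.05, as did 2.58% of all genes tested in that direction, 1.85% in the lower direction and 4.42% in either. No member had a lower value at that threshold. DESeq2 gave an unadjusted p under 0.05 to 3 members and called 0, and limma voom gave it to 2 and called 0. Over all genes such a p was given to 746 with DESeq2 and to 721 of 14396 with limma voom. In 8 of 9 members the log2 fold change was positive, as in 49.9% of genes tested. Their median log2 fold change was 0.11, against a median of 0 to 2 decimals over all genes. Of the 9 members, 4 had a p under 0.05 in the authors' deposited table, against 3.06% of its genes, and 0 had an FDR under 0.05. In bulk tissue a change in the number of microglia and a change in RNA per cell cannot be told apart.

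**Figure D1:**
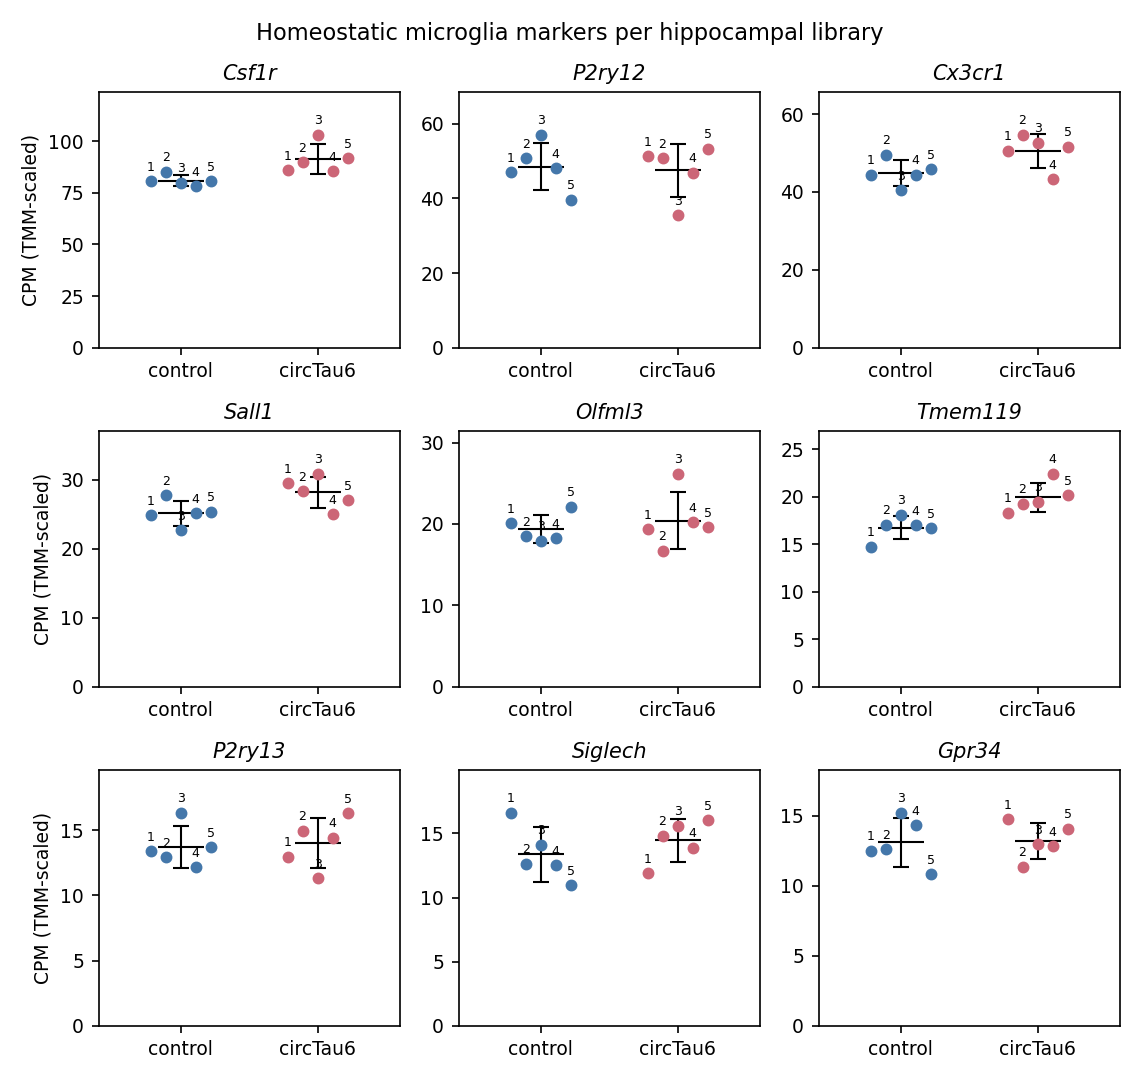
CPM of the 9 homeostatic microglia markers (y axis, starting at 0) in 5 control and 5 circTau6 libraries; points are libraries numbered by replicate, and bars are the mean ± SD. All circTau6 points lie above all control points for Csf1r and Tmem119, while P2ry12, P2ry13, Gpr34, Siglech and Olfml3 overlap broadly.

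Csf1r, the receptor tyrosine kinase for Csf1 and Il34, had the highest CPM of the set. It lies on chromosome 18 from 61100598 to 61132149, and 873 of its 5774 exonic bases are shared with Hmgxb3 on the opposite strand. If strand was not used in counting, reads from those bases cannot be assigned to either gene, and Hmgxb3 had a log2 fold change of 0.07 ± 0.06 (SE). Its control libraries had 80.5, 85.2, 79.9, 78.1 and 80.6 CPM in replicates 1 to 5, and its circTau6 libraries had 85.7, 89.8, 103.1, 85.3 and 91.6 CPM. Every circTau6 library lay above every control library, by a margin of 85.3 against 85.2 CPM at the nearest pair, and circTau6 replicate 3 was the highest. Such a separation was seen upward in 0.472% and downward in 0.368% of all genes tested. The mean was 80.8 ± 2.62 CPM in controls against 91.1 ± 7.21 CPM after circTau6 (SD, n = 5 each). The log2 fold change was 0.17 ± 0.06 (SE), with a 95% interval of 0.06 to 0.29 and an edgeR adjusted p of 0.981. Without circTau6 replicate 3 it was 0.12.

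The ligands of Csf1r did not differ past the test either. Csf1, the growth factor made by several brain cells, averaged 28.1 ± 3.29 CPM in controls against 29.8 ± 2.83 CPM after circTau6 (SD, n = 5 each). Il34, the ligand made mainly by neurons in the brain, had 26.8 CPM ± 1.73 (SD, n = 5) and 25.5 CPM ± 3.39 (SD, n = 5). Their log2 fold changes were 0.09 ± 0.09 (SE) and -0.07 ± 0.09 (SE). Among 11 genes that act downstream of or beside Csf1r, 0 were called, and 4 had an unadjusted edgeR p under 0.05, all with higher values, where 2.58% of all genes tested had such a p with a higher value and 1.85% with a lower value. They were the adaptor Tyrobp at a log2 fold change of 0.41 ± 0.13 (SE), the phosphatases Inpp5d at 0.41 ± 0.12 (SE) and Ptpn6 at 0.44 ± 0.17 (SE), and the kinase subunit Pik3cg at 0.45 ± 0.15 (SE). The median over the 11 genes was 0.07.

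Cx3cr1, the receptor for the neuronal chemokine Cx3cl1, had 44.4, 49.6, 40.4, 44.4 and 45.8 CPM in control replicates 1 to 5. In circTau6 replicates 1 to 5 it had 50.6, 54.7, 52.7, 43.3 and 51.6 CPM. In 4 of 5 circTau6 libraries it lay above every control, and circTau6 replicate 4 lay below 4 of the 5 controls. The log2 fold change was 0.17 ± 0.07 (SE), with a 95% interval of 0.03 to 0.32 and an edgeR adjusted p of 0.981. Its ligand Cx3cl1 averaged 377.7 ± 29.5 CPM in controls against 380.7 ± 15.9 CPM after circTau6 (SD, n = 5 each), a log2 fold change of 0.01 ± 0.05 (SE).

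Sall1, the zinc finger transcription factor that keeps microglial identity, had 24.8, 27.8, 22.7, 25.2 and 25.4 CPM in control replicates 1 to 5. In circTau6 replicates 1 to 5 it had 29.5, 28.3, 30.9, 24.96 and 27.1 CPM. In 3 of 5 circTau6 libraries it was above every control, and the groups overlapped. circTau6 replicate 5 lay below control replicate 2, and circTau6 replicate 4 below control replicates 2, 4 and 5. The log2 fold change was 0.16 ± 0.07 (SE), with a 95% interval of 0.0047 to 0.32 and an edgeR adjusted p of 0.981. Of 15 transcription factors of microglia and macrophages, 0 were called, 9 were positive and 6 negative, and the median log2 fold change was 0.03. An unadjusted edgeR p under 0.05 was seen in 4.42% of all genes tested and in 1 of these 15. That gene was Irf8, an interferon regulatory factor needed for microglial development, at 0.38 ± 0.16 (SE). Spi1, which encodes PU.1, had 0.38 ± 0.22 (SE), from 2.17 CPM ± 0.307 (SD, n = 5) to 2.81 CPM ± 0.714 (SD, n = 5). In the list of 9 genes of transforming growth factor beta signalling 0 were called, and Tgfbr2, the type II receptor, alone had an unadjusted edgeR p under 0.05, at 0.33 ± 0.12 (SE). Of these 9 genes 4 were positive and 5 negative, with a median of -0.04. The ligand Tgfb1 had -0.04 ± 0.17 (SE).

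Tmem119, a transmembrane protein used to tell microglia from other macrophages, had the highest fold change of the set. It had 14.7, 17.0, 18.1, 17.0 and 16.7 CPM in control replicates 1 to 5, and 18.3, 19.3, 19.5, 22.4 and 20.1 CPM in circTau6 replicates 1 to 5. Every circTau6 library lay above every control library, with 18.3 against 18.1 CPM at the nearest pair. Control replicate 1 was the lowest library and circTau6 replicate 4 the highest. The mean was 16.7 ± 1.22 CPM in controls against 19.9 ± 1.55 CPM after circTau6 (SD, n = 5 each). The log2 fold change was 0.25 ± 0.08 (SE), with a 95% interval of 0.08 to 0.42 and an edgeR adjusted p of 0.981.

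**Figure D2:**
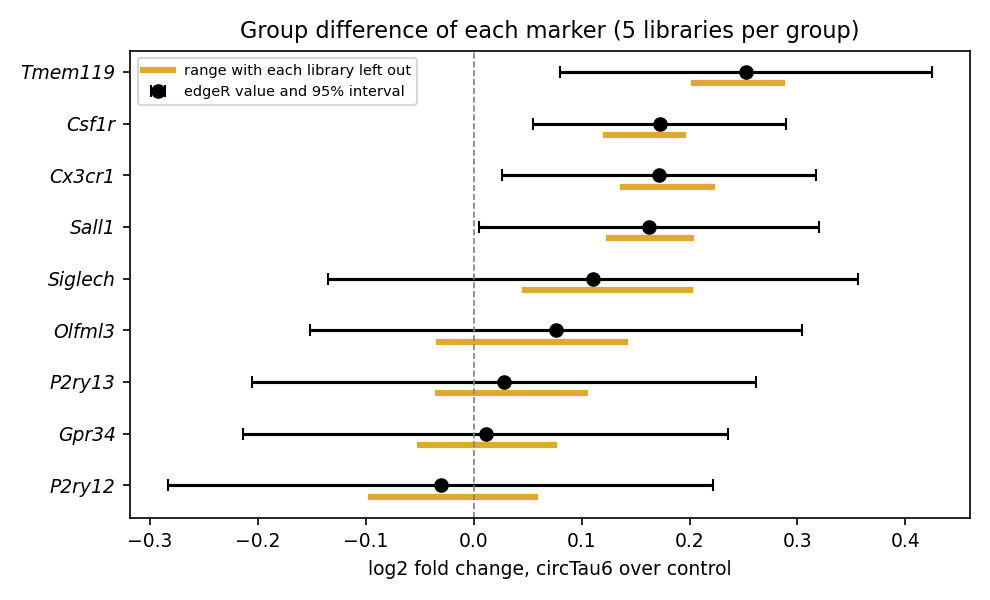
Log2 fold change of circTau6 over control (x axis) for each marker (y axis), as edgeR values with 95% intervals in black and the range obtained with each library left out in turn in yellow. The intervals of Tmem119, Csf1r, Cx3cr1 and Sall1 lie above 0 before any adjustment over genes, and those of the other 5 markers span 0.

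P2ry12, the ADP receptor that directs microglial processes to sites of injury, had 47.0, 50.8, 57.1, 48.1 and 39.7 CPM in control replicates 1 to 5. In circTau6 replicates 1 to 5 it had 51.3, 50.8, 35.5, 46.9 and 53.4 CPM. The groups overlapped throughout, and circTau6 replicate 3 was the lowest of the 10 libraries. The mean was 48.5 ± 6.33 CPM in controls against 47.6 ± 7.14 CPM after circTau6 (SD, n = 5 each). The log2 fold change was -0.03 ± 0.12 (SE), and its 95% interval of -0.28 to 0.22 covers levels from 0.822 to 1.17 times control. Without circTau6 replicate 3 the log2 fold change was 0.06.

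P2ry13, a second ADP receptor, had 12.2 to 16.4 CPM in control and 11.3 to 16.3 CPM in circTau6 libraries, with a log2 fold change of 0.03 ± 0.11 (SE). circTau6 replicate 3 was again the lowest library. Gpr34, a receptor for lysophosphatidylserine, had 10.8 to 15.2 CPM and 11.4 to 14.7 CPM, with a log2 fold change of 0.01 ± 0.11 (SE). Their 95% intervals were -0.21 to 0.26 and -0.21 to 0.24, which cover 0.867 to 1.199 times control for P2ry13 and 0.862 to 1.178 times for Gpr34. Among 10 tested genes of ADP turnover, release and related receptors, 0 were called and 0 had an unadjusted edgeR p under 0.05. Entpd1, the ectoenzyme CD39 that breaks down ATP and ADP, had 0.13 ± 0.10 (SE). P2ry14, a UDP-sugar receptor of the same family, had 0.03 ± 0.22 (SE) at about 2.31 CPM in control.

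Siglech, a sialic acid-binding lectin that pairs with Tyrobp, had 10.9 to 16.6 CPM in control and 11.9 to 16.1 CPM in circTau6 libraries, and the control range held all circTau6 libraries. Its log2 fold change was 0.11 ± 0.12 (SE). Siglech is also known from plasmacytoid dendritic cells, and of 5 other tested genes known from those cells 0 were called, with a median of 0.03. Olfml3, a secreted olfactomedin-like glycoprotein, had 17.9 to 22.1 CPM in control libraries. In circTau6 replicates 1 to 5 it had 19.4, 16.7, 26.2, 20.2 and 19.6 CPM. circTau6 replicate 3 was the highest of all 10 libraries and circTau6 replicate 2 the lowest. The log2 fold change was 0.08 ± 0.11 (SE), and -0.03 without circTau6 replicate 3.

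Levels of different genes were compared on TPM, which is scaled to transcript length. In control libraries the order was P2ry12 at 75.02 TPM ± 9.79 (SD, n = 5), Csf1r at 70.3 TPM ± 6.61 (SD, n = 5) and Cx3cr1 at 29.4 TPM ± 2.36 (SD, n = 5). Siglech followed at 19.7 TPM ± 4.04 (SD, n = 5), Tmem119 at 18.4 TPM ± 1.24 (SD, n = 5) and Gpr34 at 16.7 TPM ± 1.98 (SD, n = 5). The lowest were P2ry13 at 13.4 TPM ± 1.48 (SD, n = 5), Sall1 at 11.8 TPM ± 0.930 (SD, n = 5) and Olfml3 at 8.74 TPM ± 0.838 (SD, n = 5). P2ry12 exceeded Csf1r in 3 of 5 control libraries, so this pair could not be ordered, nor could Siglech and Tmem119, also 3 of 5. Csf1r and Cx3cr1, Cx3cr1 and Siglech, and Sall1 and Olfml3 were separated in every control library and did not overlap in range. In circTau6 libraries Csf1r had the highest mean at 82.7 TPM ± 16.2 (SD, n = 5), above P2ry12 at 74.3 TPM ± 7.80 (SD, n = 5) in 3 of 5 libraries.

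The summed TPM of the 9 markers was 271.2, 269.9, 267.7, 260.3 and 247.6 in control replicates 1 to 5 and 277.7, 301.7, 296.8, 281.3 and 283.3 in circTau6 replicates 1 to 5. All circTau6 sums lay above all control sums on TPM, with a ratio of group means of 1.09. On CPM the ratio was also 1.09, and the ranges overlapped, at 265.6 to 287.0 in control and 284.3 to 309.9 in circTau6 libraries. P2ry12 made up 28.4% ± 2.99 of the summed TPM in controls against 25.9% ± 3.18 after circTau6 (SD, n = 5 each). Csf1r made up 26.7% ± 2.90 (SD, n = 5) and 28.6% ± 4.74 (SD, n = 5). These sums describe the chosen set and were not tested.

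Csf1r differed between the deposited measures. On TPM its control libraries had 77.6, 69.4, 60.0, 70.2 and 74.1 and its circTau6 libraries 72.9, 95.5, 102.9, 78.6 and 63.6, so the groups overlapped, unlike on CPM. The ratio of count to TPM, taken relative to each library, varied by 13.3% (coefficient of variation over 10 libraries) for Csf1r and by 7.82% for Siglech, against a median of 1.52% over 11705 genes. For Tmem119, Cx3cr1, Sall1, P2ry13 and Olfml3 it varied by at most 0.444%. For Csf1r it was 1.55 times as high in circTau6 replicate 5 as in circTau6 replicate 2. In the authors' deposited table Csf1r has a log2 fold change of 0.24 and Tmem119 one of 0.27.

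**Figure D3:**
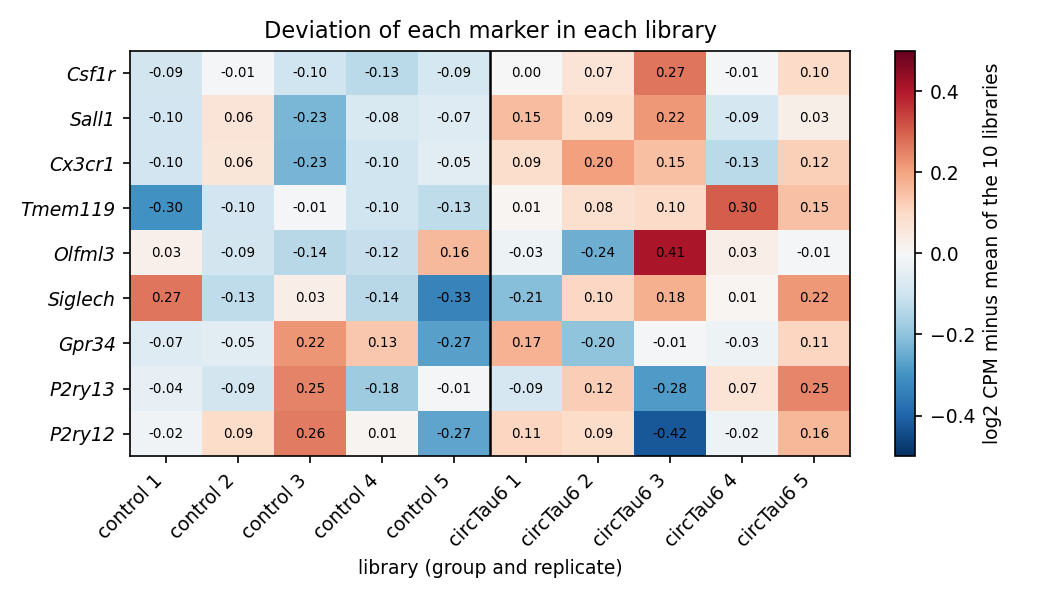
Log2 CPM of each marker (rows) in each library (columns) minus the marker's mean over the 10 libraries, with the value written in each cell. In circTau6 replicate 3 Olfml3 is at 0.41 and Csf1r at 0.27 while P2ry12 is at -0.42 and P2ry13 at -0.28.

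The 9 markers did not vary as 1 block across the libraries. Over the 36 pairs the Pearson correlation of log2 CPM across the 10 libraries had a median of 0.12 and ran from -0.87 to 0.91, and 24 pairs were positive. Of the 36 pairs, 2 passed a permutation test after Benjamini-Hochberg adjustment over the pairs, and 0 passed on Spearman's rho. Cx3cr1 and Sall1 had r = 0.91 with a permutation p of 0.00057 (adjusted 0.0205) and rho = 0.88 with a permutation p of 0.00157 (adjusted 0.0565). Their r was 0.90 without the 2 libraries farthest from the median of Cx3cr1, and 0.85 after centring each group on its own mean. Csf1r joined them with r = 0.79 for Sall1 and r = 0.75 for Cx3cr1, with permutation p of 0.00556 and 0.00884 (adjusted 0.0667 and 0.0796), and rho was 0.77 and 0.82, with permutation p of 0.0131 and 0.00554 (adjusted 0.135 and 0.0997). Without the 2 farthest libraries r was 0.69 for Csf1r and Sall1 and 0.78 for Cx3cr1 and Csf1r. After centring each group on its own mean r fell to 0.62 for Csf1r and Sall1 and to 0.54 for Cx3cr1 and Csf1r.

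P2ry12 and Olfml3 varied in opposite directions, with r = -0.87 (permutation p 0.00184, adjusted 0.0331) and rho = -0.76 (permutation p 0.015, adjusted 0.135). Without the 2 libraries farthest from the median of P2ry12 their r was -0.41, so the relation rests on these libraries, and without circTau6 replicate 3 it was -0.71. The neighbours P2ry12 and P2ry13 had r = 0.69 (permutation p 0.0259, adjusted 0.186) and rho = 0.59 (permutation p 0.0805, adjusted 0.483). Their r was 0.65 without the 2 farthest libraries. Batches could not be examined further, since the labels give none and each group holds 5 libraries, too few for a correlation within it.

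**Figure D4:**
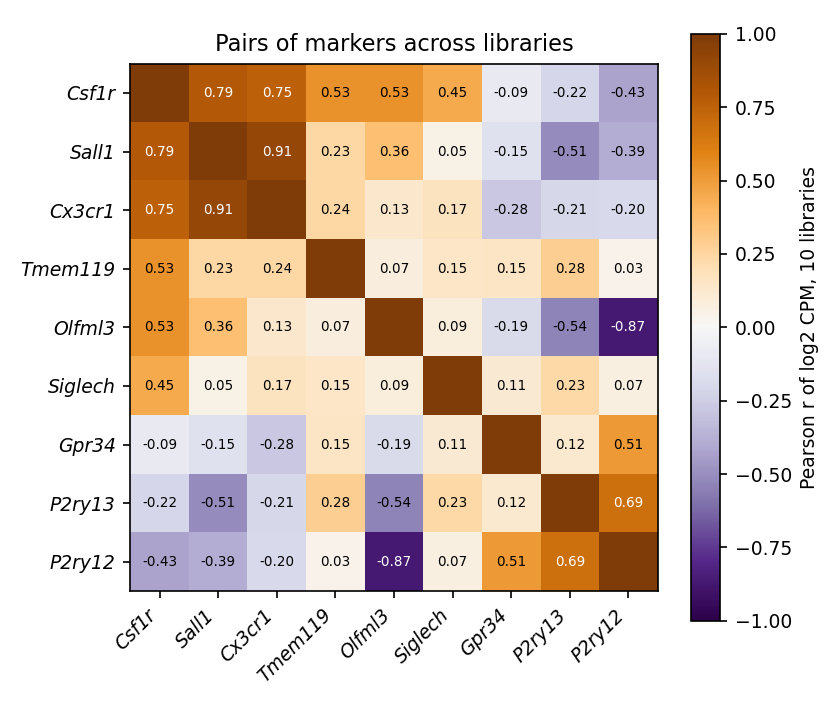
Pearson r of log2 CPM over 10 libraries for each pair of markers (both axes list the 9 genes). Csf1r, Sall1 and Cx3cr1 form a positive corner at 0.75 to 0.91, and P2ry12 is positive with P2ry13 at 0.69 and Gpr34 at 0.51 and negative with Olfml3 at -0.87. Group means were not removed from these values.

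The members differed in base composition. The longest GENCODE M21 transcript had a GC content of 37.1% for Gpr34, 38.6% for P2ry12, 44.7% for P2ry13 and 45.5% for Siglech. It was 50.3% for Cx3cr1, 51.6% for Sall1, 52.4% for Olfml3, 54.5% for Csf1r and 59.1% for Tmem119, against a median of 49.7% over the tested genes. In circTau6 replicate 3, log2 CPM relative to the other circTau6 libraries was -0.51 for P2ry12 and -0.37 for P2ry13, and 0.47 for Olfml3, 0.23 for Csf1r and 0.17 for Sall1. Gpr34, the member with the lowest GC content, was at -0.02, and Tmem119, the member with the highest, at -0.04. Over the 9 members of this library the correlation with GC content was 0.56, which is a description across genes. The same measure was 0.74 in control replicate 5, -0.62 in control replicate 3 and -0.69 in circTau6 replicate 5. Over the 9 members a value of this size was thus also seen in other libraries. Over the tested genes the correlation lay between -0.12 and 0.03 in the others and was 0.28 in circTau6 replicate 3. The median deviation in this library was -0.15 for the tested genes in the lowest quartile of GC content and 0.11 for those in the highest. The part of base composition in the values of the markers was not tested. Without this library the log2 fold changes were 0.12 for Csf1r, 0.13 for Sall1, 0.15 for Cx3cr1 and 0.26 for Tmem119.

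**Figure D5:**
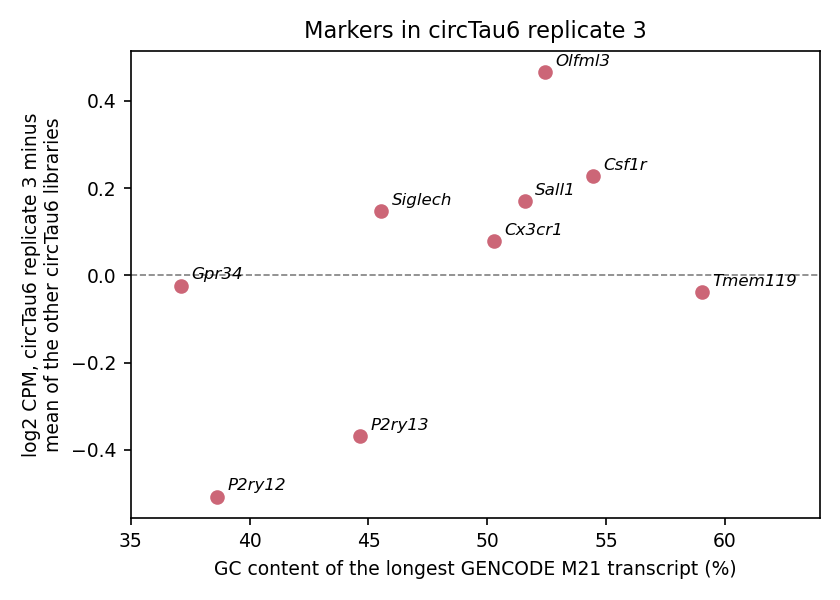
Log2 CPM of each marker in circTau6 replicate 3 minus the mean of the other 4 circTau6 libraries (y axis) against the GC content of its longest transcript in percent (x axis), 1 point per gene. P2ry12 and P2ry13 lie at -0.51 and -0.37 and Olfml3 at 0.47, while Gpr34 and Tmem119, at the ends of the GC range, lie near 0.

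Other genes of homeostatic microglia, 24 measured genes beside the 9, had a median log2 fold change of 0.07, and 18 of them were positive. Of these 24, 0 were called and 0 had an unadjusted edgeR p under 0.05 with a lower value. A higher value at that threshold was seen in 2.58% of all genes tested and in 3 of the 24. Among these 3 were the organic anion transporter Slco2b1 at 0.23 ± 0.08 (SE) and the lymphoid and myeloid transcription factor Ikzf1 at 0.50 ± 0.15 (SE). Of 19 tested genes of disease-associated microglia 0 were called, 16 were positive and the median was 0.10. Of these 19, 1 had an unadjusted edgeR p under 0.05 with a higher value and 1 with a lower value. Over all genes tested 2.58% had such a p with a higher value and 1.85% with a lower value. The microglial protease gene Ctss, picked after its values were seen, had a log2 fold change of 0.44 ± 0.07 (SE). That value lay above the upper 95% limit of each of the 9 markers. Ctss had 59.5 to 75.7 CPM in control and 85.1 to 100.6 CPM in circTau6 libraries. Such an upward separation was seen in 0.472% of all genes tested. Whether Ctss and the markers differ in their change was not tested.

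Cells that share some of these transcripts were measured beside them. The 14 markers of border macrophages and monocytes summed to 22.7 to 40.7 CPM in control and 22.6 to 53.2 CPM in circTau6 libraries, none of the 14 was at 0 in all libraries, and 0 of 7 tested were called. The median log2 fold change of these 7 was 0.31, against 0.11 for the 9 members, with 5 positive and 2 negative. An unadjusted edgeR p under 0.05 with a higher value was seen in 2.58% of all genes tested and in 1 of the 7. That gene was Ccr2, the chemokine receptor of monocytes, at a log2 fold change of 1.52 ± 0.60 (SE). Ccr2 had 0.393 ± 0.534 CPM in controls against 1.10 ± 0.376 CPM after circTau6 (SD, n = 5 each). A gene this low in controls can pass the count filter through the circTau6 libraries alone, so its p gives no support for a difference. Ccr2 is also among the 7 genes behind the median of 0.31, which leaves out the listed markers with too few counts. F13a1, a coagulation factor subunit of macrophages, had 0.64 ± 0.34 (SE). Ly6c2 and Plac8, too low to be tested, averaged 0.503 and 0.0604 CPM in controls against 1.33 and 0.429 CPM after circTau6. They were picked after their values were seen. In the authors' deposited table the log2 fold changes of the 14 markers ran from -0.17 to 2.81, so not all were higher. Ptprc, the leukocyte phosphatase CD45 shared by microglia and blood leukocytes, was also picked after its values were seen. It had 3.17 to 6.05 CPM in control and 9.13 to 9.77 CPM in circTau6 libraries. An upward separation without overlap, as here, was seen in 0.472% of all genes tested. The log2 fold change of Ptprc was 1.03 ± 0.16 (SE), with an edgeR adjusted p of 0.0713. Mrc1, the mannose receptor of border macrophages, had 3.67 to 7.41 CPM in control and 3.51 to 11.1 CPM in circTau6 libraries. Pf4 had 0.172 to 0.601 CPM in control libraries, within its range of 0.0585 to 1.00 CPM in circTau6 libraries. The 10 meningeal fibroblast markers had a median log2 fold change of 0.30 with 0 called, summing to 183.1 to 396.0 CPM in control and 148.1 to 543.1 CPM in circTau6 libraries. The part of these cells in the values of the markers was not tested. Neuron, oligodendrocyte and astrocyte lists had medians of -0.05, -0.04 and -0.01, with 0 called in any. The endothelial list and the list of pericytes and smooth muscle had medians of 0.10 and 0.15, near that of the 9 members. Each had 7 of 9 genes positive, against 49.9% of all genes tested, and 0 called. Of the pericyte and smooth muscle genes 2 had an unadjusted edgeR p under 0.05 with a higher value, as did 2.58% of all genes tested.

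For some markers the control spread was close in size to the counting error expected from their counts. The part of counting error in that spread was not tested. For Csf1r, Poisson error at the mean control count was 2.79% and the coefficient of variation of its control CPM was 3.24%, and for Tmem119 these were 6.12% and 7.28%. For Gpr34, the member with the fewest counts in control, they were 6.91% and 13.2%, and for P2ry12 3.59% and 13.04%. In circTau6 libraries the coefficient of variation of CPM was 7.92% for Csf1r and 7.78% for Tmem119.

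The 8 other genes whose log2 CPM was most like the mean standardised profile of the 9 markers over the 10 libraries were Serinc3, Ercc4, Cartpt, Zfp651, Aldh1a3, Kif26a, Rpl24 and Nup210. Their Pearson r lay between 0.88 and 0.92, their rho between 0.85 and 0.99, and their r without the 2 libraries farthest from the median profile between 0.70 and 0.87. Of 14396 genes 0 passed a permutation test of this likeness after Benjamini-Hochberg adjustment, and the lowest adjusted p was 0.072, for Ercc4, at the smallest p that the permutations can give, 1e-05. A lone gene at that p could not pass after adjustment over 14396 genes, so the count of 0 is limited by the number of permutations. Among the members themselves Csf1r was most like the profile, with r = 0.83, and P2ry12 least, with r = 0.10. The profile was above its mean in every circTau6 library and below it in every control library. It was made from the chosen members with group means kept, so this split is no test. A gene with a group difference can resemble the profile through that difference. The edgeR log2 fold changes of the 8 genes ran from 0.06 for Rpl24 to 1.18 for Cartpt. Cartpt and Aldh1a3 had few counts, with mean log2 CPM of 0.12 and -0.29.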

How the data were processed

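Ribosomal RNA was removed before strand-specific paired sequencing, per the labels' protocols. The deposited table gives counts and TPM for each gene, per the file headers. StringTie 1.3.1 and RSEM appear in the submitters' processing notes, whose role and settings, like the aligner and build, the sources used here do not state. A count of 0 with a TPM above 0 occurs in 108 entries. The authors' deposited log2 value equals the log2 ratio of mean TPM to within 0.001 for 21956 genes, and their test for the deposited p-value and FDR is unstated.

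Counts were tested with edgeR 4.0.16 in R 4.3.3 (filterByExpr, TMM, robust quasi-likelihood F test, Benjamini-Hochberg adjustment over 14396 genes, threshold 0.05), which was tested on simulated data. Standard errors came from the fold change and the root of F. DESeq2 1.42.0, limma 3.58.1, other scalings and filters, a replicate block and leaving out libraries were alternatives. Log2 CPM used a prior count of 2, and correlations 100000 permutations. TPM entered limma as log2(TPM + 1). P-values measure the spread between 5 libraries per group, which may be technical, since no label ties a library to an animal.

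The members and lists were chosen with earlier results of these data known. Named are all members, up to 4 genes of each list by lowest p, Csf1, Il34, Cx3cl1, Mapt and the 8 genes of most similar profile; Tgfb1, P2ry14, Pf4, Ly6c2, Plac8, Ptprc, Ttr, Ctss and the overlapping genes were added after their values were seen. Fcrls was not analysed here. The values of 1 other listed gene are not reported here. Promoter windows are from RefSeq (GRCm38.p6).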

Additional observations from a re-analysis of the deposited data

Results flagged for a closer look

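The TPM of P2ry12 in circTau6 replicate 3 lay far from the other circTau6 libraries, at 60.8 TPM against 75.5 to 80.9 TPM. It was the only library picked out among 46 groups of values examined, and chance picks out about 5 in 100. The same library had the lowest P2ry12 on CPM, 35.5 CPM, and the highest Olfml3, 26.2 CPM.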

How the results depend on the processing

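No member was called under any alternative, and 0 genes of the companion lists were, while the count over all genes was 14 with DESeq2, 2 with limma voom, 2 with library totals, 2 without a count filter, 4 with the replicate block, 3 without both choroid-poor libraries, 2 at an adjusted p under 0.10 and 0 to 4 with 1 library left out (4 without circTau6 replicate 5, 1 without control replicate 1 or 3). Same-numbered libraries correlated at -0.08 to 0.14 in their deviations from the group means, and none correlated best with its own number. The labels do not say that the numbers pair the libraries, and whether they mark a shared batch was not tested. The number of members with an unadjusted p under 0.05, examined after the count was seen, was 4, and 2 with limma voom, 2 with limma on log2(TPM + 1) and 2 to 4 with 1 library left out (2 without control replicate 3 or circTau6 replicate 2). Over all genes that number was 637, and 721 with limma voom, 698 with limma on log2(TPM + 1) and 452 to 969 with 1 library left out. Tmem119, Csf1r, Cx3cr1, Sall1 and Siglech kept a positive sign under all 19 alternatives each, with lowest and highest log2 fold changes of 0.20 and 0.29, 0.12 and 0.22, 0.14 and 0.22, 0.13 and 0.21, and 0.05 and 0.20. P2ry12 changed sign to 0.0051 with limma voom and ran from -0.095 to 0.057 with 1 library left out, P2ry13 changed sign to -0.055 without both choroid-poor libraries and ran from -0.033 to 0.10, and Gpr34 changed sign to -0.030 without both and ran from -0.050 to 0.075. Olfml3 ran from -0.032 to 0.14 and Cx3cl1 from -0.024 to 0.044 with 1 library left out. The fold of summed TPM ran from 1.08 to 1.10 with 1 library left out. The median pairwise correlation changed sign to -0.079 after centring within groups, was 0.036 without both choroid-poor libraries and ran from 0.040 to 0.18 with 1 library left out. The causes of these moves were not tested. The control spread of Csf1r and Tmem119 was close to counting error, and the coefficient of variation of Csf1r was 3.24% in control and 7.92% in circTau6 libraries. The part of depth in the precision was not tested, and 5 libraries per group limit it for all members.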
